A study of Homo sapiens with 15 samples.

Results

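The 10 genes described here are PMEPA1, a membrane inhibitor of TGF-beta signalling, the receptors TGFBR1, TGFBR2, TGFBR3 and BMPR1B, and the signal carriers SMAD2, SMAD3, SMAD4, SMAD6 and SMAD7. They were taken by symbol from the 17272 genes of the expression table, and all 10 had a row and passed the filter on low values, which left 17046 genes tested. mRNA was measured in LNCaP, a human prostate cancer line whose growth responds to androgen, in 10 libraries of cells given 1 nM R1881, a synthetic androgen, with DMSO as vehicle, and in 5 libraries of cells given 1 nM R1881 with 2 µM enzalutamide, which blocks the androgen receptor. All cells had been held for 2 days in charcoal-stripped serum and were collected 22 h after treatment, so both groups carried the androgen and differed in the inhibitor. All libraries come from a single cell line, and the methods call them biological replicates without saying whether they are separate cultures, so the p-values measure the spread between these libraries, which may be technical.

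TGF-beta ligands bind a complex of the type II receptor TGFBR2 and the type I receptor TGFBR1, helped by the co-receptor TGFBR3 (betaglycan), and the activated type I receptor phosphorylates SMAD2 and SMAD3, which enter the nucleus with SMAD4. The BMP branch runs through type I receptors such as BMPR1B and BMPR1A to SMAD1, SMAD5 and SMAD9, and also uses SMAD4. SMAD6 and SMAD7 are inhibitory SMADs that block the receptors, and PMEPA1 binds the receptor-regulated SMADs and ubiquitin ligases of the NEDD4 family at the membrane. In normal prostate epithelium TGF-beta restrains growth, and PMEPA1 is known as an androgen-induced gene.

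Start-site windows of RefSeq on GRCh38.p14, each from 250 bases before to 50 bases after an annotated start, were searched on both strands for motifs of the androgen receptor and of SMAD proteins. Each of the 10 genes had at least 1 such window under its symbol, with 30 windows in all. The short androgen-receptor motif AGAACA, which reads TGTTCT on the other strand, was in 6 of the 30 windows, against 14.8% of 34943 windows of all genes, and the full androgen response element, which joins the short motif to its inverted copy across a 3-base gap and so contains it on both strands, was in 0 of the 30, against 0.00286%. The SMAD-binding motif CAGAC, which reads GTCTG on the other strand, was in 13 of the 30 windows, against 45.3% of all windows. The palindromic SMAD motif GTCTAGAC, which does not overlap the letters of CAGAC or GTCTG, was in 1 of the 30, against 0.203%. No window of SMAD2, SMAD4 or TGFBR3 held any of these motifs. TGFBR1 gave 8 of the 30 windows, and some windows of SMAD2, TGFBR1 and TGFBR2 overlap, so a motif can be counted more than once. Below are 2 of the 4 windows of PMEPA1, shown because this gene fell the most, and the window of SMAD6, the member window with the palindrome. The PMEPA1 windows shown are those at the canonical start and at the start nearest to it. Of those not shown, that 1457 bases from the canonical start holds AGAACA and that 19329 bases away holds CAGAC. Capitals mark any of these motifs, the letters are the reference genome and not the LNCaP sequence, and a match is a description of the letters, not a binding site. The first window, chr20:57709966-57710265 on the minus strand, surrounds the canonical start and holds CAGAC and GTCTG side by side. The second, chr20:57710528-57710827 on the minus strand, belongs to a start 562 bases upstream and holds TGTTCT and CAGAC. The third, chr15:66701986-66702285 on the plus strand, surrounds the canonical SMAD6 start and holds TGTTCT and GTCTAGAC.
PMEPA1, canonical start: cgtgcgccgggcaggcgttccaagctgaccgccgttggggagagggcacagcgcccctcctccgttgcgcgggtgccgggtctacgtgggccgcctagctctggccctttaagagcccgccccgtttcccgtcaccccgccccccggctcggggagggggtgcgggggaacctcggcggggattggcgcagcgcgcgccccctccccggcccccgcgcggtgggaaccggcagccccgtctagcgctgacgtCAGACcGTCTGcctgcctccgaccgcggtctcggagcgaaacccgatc
PMEPA1, upstream start: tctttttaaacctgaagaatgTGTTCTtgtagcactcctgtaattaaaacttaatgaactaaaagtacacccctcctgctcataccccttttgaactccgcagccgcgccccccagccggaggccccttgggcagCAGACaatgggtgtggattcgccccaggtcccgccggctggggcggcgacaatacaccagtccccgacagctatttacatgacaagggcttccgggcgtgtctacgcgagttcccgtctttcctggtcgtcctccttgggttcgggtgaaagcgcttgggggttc
SMAD6, canonical start: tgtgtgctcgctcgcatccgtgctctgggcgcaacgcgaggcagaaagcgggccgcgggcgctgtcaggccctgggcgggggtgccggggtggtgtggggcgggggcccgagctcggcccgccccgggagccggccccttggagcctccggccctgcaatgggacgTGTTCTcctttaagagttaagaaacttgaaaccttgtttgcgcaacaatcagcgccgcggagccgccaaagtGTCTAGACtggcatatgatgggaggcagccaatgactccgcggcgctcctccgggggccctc

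The deposited values are CPM, reads of a gene per 1000000 reads of a library, but scaled by a rule that is not given. Their totals per library were 1053406 to 1078567 with R1881 + DMSO and 985580 to 1008992 with R1881 + enzalutamide, without overlap. They returned whole read counts of 15830745 to 24316740 per R1881 + DMSO library and 21188661 to 25416052 per R1881 + enzalutamide library. As a check of the treatment, the androgen-induced genes KLK2, FKBP5 and TMPRSS2 fell by 4.87, 4.99 and 3.56 on the log2 scale (adjusted p from limma of at most 1.0e-20). The luminal prostate markers had rows for 8 of 8 genes and summed to between 5145 and 5679 CPM with R1881 + DMSO and between 4436 and 4590 CPM with R1881 + enzalutamide. Of the basal markers 1 of 3 had a row (KRT14, 0.706 to 1.44 CPM with R1881 + DMSO and 0 to 0.279 CPM with enzalutamide), of the endothelial markers 1 of 3 (VWF, 2.08 to 2.84 and 2.84 to 3.35 CPM) and of the immune markers 0 of 3. Of 5 fibroblast markers, COL1A1, COL3A1 and LUM had a row, and their summed level was 6.36 to 10.5 CPM with R1881 + DMSO and 21.2 to 26.7 CPM with enzalutamide. In bulk RNA, fewer cells of a type and less RNA per cell cannot be told apart.

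Enzalutamide moved the 10 genes in both directions. PMEPA1, BMPR1B and SMAD4 were lower, SMAD3, SMAD7 and SMAD2 were higher, and SMAD6, TGFBR1, TGFBR2 and TGFBR3 did not pass the test, so 6 of 10 (60%) were called at an adjusted p under 0.05 (limma, log2(CPM + 0.5), Benjamini-Hochberg adjustment over all genes tested). Of all genes tested, 62.5% were called, 32.7% lower and 29.8% higher, so the share among the members is close to the background and is not a result about them. The median log2 fold change of the members was -0.01, beside -0.01 for all genes tested. A call with a change of at least 2-fold was made for 2 members lower (PMEPA1 and BMPR1B) and 1 higher (SMAD3), against 4.19% and 3.26% of all genes and 7.45% in either direction. The libraries of both groups did not overlap for 2 members lower and 3 higher, against 20.1% and 17.1% of all genes and 37.2% in either direction. With every library total set to 1000000 in place of the totals as deposited, the calls over all genes turned from 5577 lower and 5083 higher to 4288 lower and 6629 higher, the median of all genes moved to 0.07, and SMAD4 lost its call while SMAD6 gained one.

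**Figure D1:**
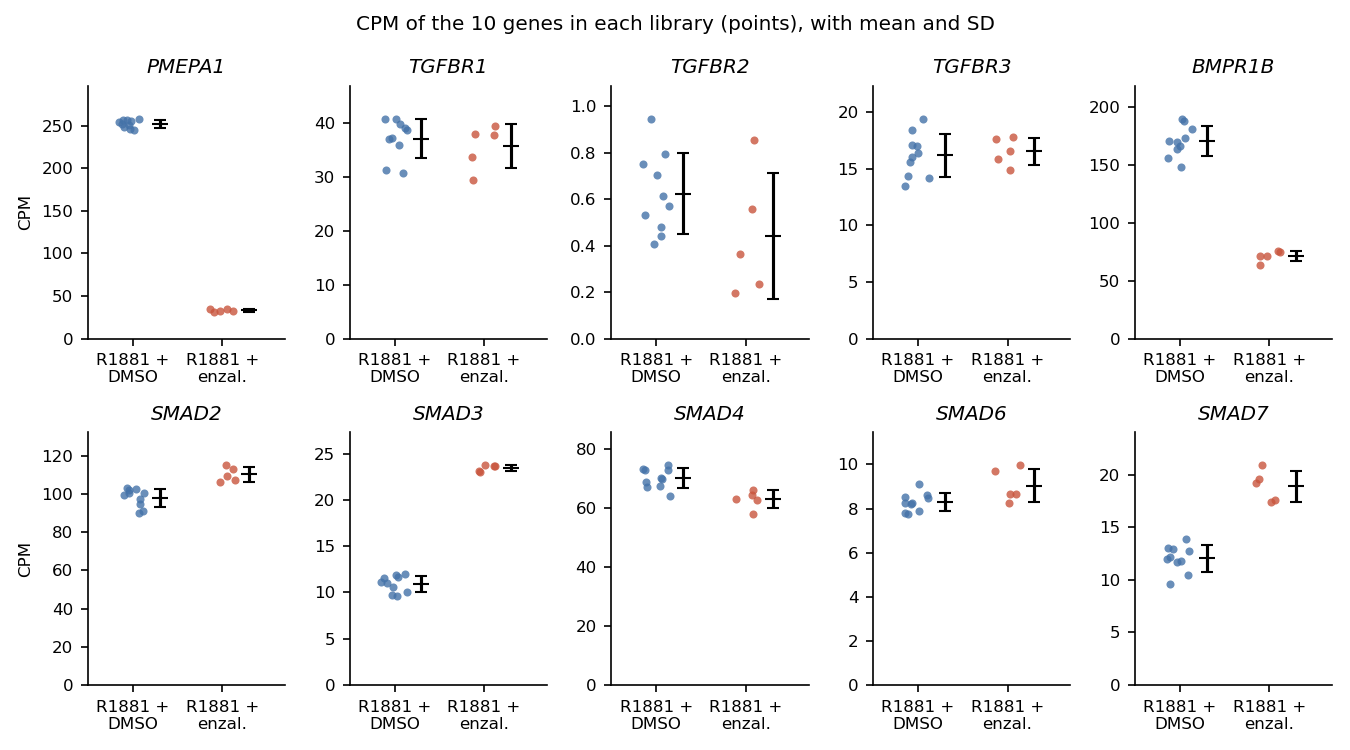
CPM (vertical axis, linear from 0, its own range in each panel) of the 10 genes in each of 10 R1881 + DMSO libraries (blue) and 5 R1881 + enzalutamide libraries (red), with mean and SD in black. The groups are apart for PMEPA1, BMPR1B, SMAD2, SMAD3 and SMAD7, and they overlap for the other 5 genes.

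PMEPA1 lies on chromosome 20 (GRCh38, 57648392 to 57711536, minus strand, 4 exons in the canonical transcript of GENCODE v44). With R1881 + DMSO its level was lowest at 245 CPM, had a median of 253 CPM and was highest at 258 CPM. With R1881 + enzalutamide the 5 libraries gave 32.8, 34.9, 31.0, 32.0 and 34.5 CPM. All 5 libraries with the inhibitor were far below all 10 without it, and the groups did not overlap. The mean fell from 253 ± 4.77 (SD, n = 10) to 33.02 ± 1.65 CPM (n = 5), a 7.65-fold lower level and a decrease of 87.0% in the median. The log2 fold change was -2.92 (SE 0.032, limma adjusted p = 3.4e-24), number 62 from the lowest of the 17046 genes tested. PMEPA1 also had the lowest coefficient of variation of the members with R1881 + DMSO, 1.89%, and the most reads (3816 to 5818). Counting error alone gave 1.42%. For SMAD6 and TGFBR2 the coefficients (5.00% and 27.7%) were below those from counting error (7.81% and 28.0%), and for the other members they were above. Against the R1881 + DMSO libraries numbered 51 to 55 and 71 to 75 in the labels, taken separately, the log2 fold change was -2.91 and -2.93. The R1881 + enzalutamide libraries are numbered 81 to 85, and the labels do not give the meaning of these numbers. Treatment and number series therefore cannot be told apart for any gene here.

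The lncRNA NKILA (chromosome 20, 57710156 to 57712780, plus strand) overlaps the 5′ end of PMEPA1 on the opposite strand and had a row of its own. Its level was 8.88 ± 0.771 CPM with R1881 + DMSO (n = 10) and 3.85 ± 0.198 CPM with R1881 + enzalutamide (n = 5), a log2 fold change of -1.11 (limma adjusted p = 1.3e-11). The library kit keeps the strand, but the sources used here do not give whether the counting used it, so reads of the pair cannot be assigned with certainty. NKILA was lower in all 5 libraries with the inhibitor than in any without it, as PMEPA1 was.

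The genes whose profile over the 15 libraries was nearest to that of PMEPA1, by the root mean square difference of mean-centred log2(CPM + 0.5) among 12163 genes with a mean of at least 5 CPM, were SLC41A1 (0.0795), WIPI1 (0.0867), SLC45A3 (0.0968), SEC14L2 (0.101) and RHOU (0.102). SLC41A1 is a magnesium transporter, WIPI1 acts in autophagy, and SLC45A3 is the prostate protein prostein. Their mean level with enzalutamide was 14.6%, 12.2%, 13.8%, 12.8% and 14.5% of that with R1881 + DMSO, beside 13.1% for PMEPA1. These genes were chosen for this likeness over the same libraries, so the closeness of their values is a description and not a result.

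**Figure D2:**
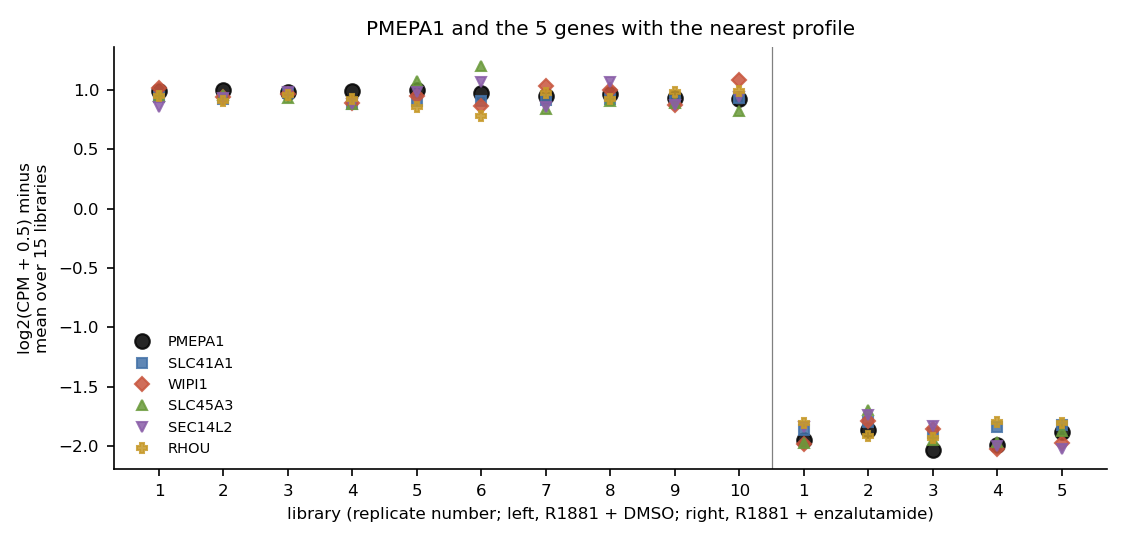
Mean-centred log2(CPM + 0.5) (vertical axis) of PMEPA1 and the 5 genes with the nearest profile in each library (horizontal axis, replicate number within the group, R1881 + DMSO left of the line and R1881 + enzalutamide right). Each symbol is a gene in a library, and the 6 genes, 5 of them chosen for their closeness to PMEPA1, lie in a high band on the left and a low band on the right.

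Levels of different genes are compared as CPM per kb of the canonical transcript, a length that depends on the annotated transcript and is longest for SMAD2 (34.6 kb). With R1881 + DMSO the order of mean levels was PMEPA1 (51.0 ± 0.962 CPM per kb), BMPR1B (30.6 ± 2.38), SMAD4 (7.98 ± 0.378), TGFBR1 (5.72 ± 0.554), SMAD7 (3.61 ± 0.381), SMAD2 (2.83 ± 0.136), TGFBR3 (2.55 ± 0.296), SMAD6 (2.165 ± 0.108), SMAD3 (1.69 ± 0.135) and TGFBR2 (0.138 ± 0.0382). The library ranges of SMAD7 and SMAD2, of SMAD2 and TGFBR3, and of TGFBR3 and SMAD6 overlapped, and the other neighbours in this order did not. With R1881 + enzalutamide BMPR1B stood first (12.8 ± 0.842 CPM per kb), followed by SMAD4 (7.16 ± 0.347) and PMEPA1 (6.67 ± 0.333), whose ranges overlapped, and SMAD3 moved from ninth to sixth place (3.63 ± 0.0531). It thereby passed SMAD2 (3.18 ± 0.109), whose place rests on its long transcript. Without division by length, SMAD2 (110.2 CPM) stayed above SMAD3 (23.4 CPM) with R1881 + enzalutamide. SMAD7 (5.66 ± 0.437) and TGFBR1 (5.49 ± 0.628) overlapped there, as did TGFBR3 (2.61 ± 0.190) and SMAD6 (2.36 ± 0.194). TGFBR2 was last in both groups (0.0973 ± 0.0598 CPM per kb with enzalutamide).

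Among the receptors, BMPR1B, a type I receptor of the BMP branch on chromosome 4 (94757955 to 95158448, plus strand), fell with enzalutamide. Its level with R1881 + DMSO was lowest at 148 CPM, with a median of 170.3 and a highest value of 189.8 CPM, and with R1881 + enzalutamide it was 74.4, 63.5, 71.7, 75.6 and 71.2 CPM. Every library with the inhibitor was below every library without it. The mean went from 171 ± 13.3 (n = 10) to 71.3 ± 4.70 CPM (n = 5), 2.40-fold lower, with a log2 fold change of -1.25 (SE 0.054, limma adjusted p = 1.9e-14). Against the R1881 + DMSO libraries 51 to 55 alone, whose mean was 180.0 CPM, it was -1.33, and against 71 to 75, with a mean of 162 CPM, it was -1.17.

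TGFBR1, the type I receptor for TGF-beta on chromosome 9 (99104038 to 99154192, plus strand), did not pass the test. With R1881 + DMSO its level was lowest at 30.7 CPM, with a median of 38.0 and a highest value of 40.7 CPM, and with R1881 + enzalutamide it was 39.4, 29.4, 33.7, 38.0 and 37.7 CPM. The groups overlapped, with 1 library with the inhibitor below the lowest without it. The means were 37.1 ± 3.59 and 35.6 ± 4.08 CPM, and the log2 fold change was -0.06 (95% interval -0.21 to 0.10, limma adjusted p = 0.51). Its sign turned to 0.03 with library totals of 1000000, to 0.01 against the R1881 + DMSO libraries 71 to 75 and to 0.01 without replicate 2 of the inhibitor group.

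TGFBR2, the type II receptor on chromosome 3 (30606601 to 30694142, plus strand), was near the lower limit of detection. With R1881 + DMSO it held 0.406 to 0.945 CPM (median 0.592), and with R1881 + enzalutamide 0.233, 0.558, 0.364, 0.853 and 0.196 CPM. These values rest on 6 to 21 reads per library with R1881 + DMSO and 5 to 19 reads with enzalutamide, and the groups overlapped. The means were 0.624 ± 0.173 and 0.441 ± 0.271 CPM, with a log2 fold change of -0.29 (SE 0.149, 95% interval -0.60 to 0.03, limma adjusted p = 0.10). Without replicate 4 of the inhibitor group, which held the highest of the 5 values, the log2 fold change was -0.43 (limma adjusted p = 0.014). The call therefore rests on whether that library is kept.

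TGFBR3, the co-receptor betaglycan on chromosome 1 (91680343 to 91906335, minus strand), was also not called. With R1881 + DMSO its level ran from 13.5 to 19.4 CPM (median 16.2), and with R1881 + enzalutamide it was 17.6, 14.9, 15.8, 16.6 and 17.8 CPM, all within the range of the other group. The log2 fold change was 0.04 (95% interval -0.12 to 0.19, limma adjusted p = 0.70), and its sign differed between the control series. The R1881 + DMSO libraries 51 to 55 averaged 17.6 ± 1.23 CPM and the libraries 71 to 75 averaged 14.7 ± 1.05 CPM (n = 5 each), and the log2 fold change was -0.09 against the former (limma adjusted p = 0.25) and 0.16 against the latter (limma adjusted p = 0.058).

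Of the receptor-regulated SMADs, SMAD3, on chromosome 15 (67063763 to 67195173, plus strand), rose the most of the 10 genes. With R1881 + DMSO its level was lowest at 9.66 CPM, with a median of 11.1 and a highest value of 11.98 CPM. With R1881 + enzalutamide it was 23.1, 23.7, 23.7, 23.0 and 23.6 CPM, and all 5 libraries were well above all 10 of the other group. The mean rose from 10.9 ± 0.874 to 23.4 ± 0.343 CPM, 2.14-fold, with a log2 fold change of 1.07 (SE 0.059, limma adjusted p = 1.3e-12).

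SMAD2, on chromosome 18 (47808957 to 47931146, minus strand), rose by a smaller amount. Its level with R1881 + DMSO ran from 90.1 to 103 CPM (median 100), and with R1881 + enzalutamide it was 113, 106, 107, 109 and 115 CPM, above every library of the other group. The mean went from 98.1 ± 4.72 to 110.2 ± 3.77 CPM, with a log2 fold change of 0.17 (SE 0.038, limma adjusted p = 0.00067). The processed pseudogene MTCO2P2, a copy of a mitochondrial gene with which it may share reads, annotated on the same strand within the bounds of SMAD2, had a row of its own and went from 174 ± 11.5 to 210 ± 5.32 CPM.

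SMAD4, the common partner of both branches on chromosome 18 (51028528 to 51085045, plus strand), was slightly lower. Its level with R1881 + DMSO ran from 63.8 to 74.3 CPM (median 69.8), and with R1881 + enzalutamide it was 66.1, 58.0, 62.5, 64.3 and 63.1 CPM. The groups overlapped, with 3 of 5 libraries with the inhibitor below the lowest without it. The mean went from 70.0 ± 3.31 to 62.8 ± 3.04 CPM, with a log2 fold change of -0.15 (SE 0.041, limma adjusted p = 0.0025). With library totals of 1000000 it was -0.06 (limma adjusted p = 0.15), so the call depends on the scaling.

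Of the inhibitory SMADs, SMAD7, on chromosome 18 (48919853 to 48950965, minus strand), rose. Its level with R1881 + DMSO ran from 9.61 to 13.9 CPM (median 12.1), and with R1881 + enzalutamide it was 19.6, 20.9, 17.6, 17.4 and 19.2 CPM, so the groups did not overlap. The mean went from 12.05 ± 1.27 to 18.9 ± 1.46 CPM, 1.57-fold, with a log2 fold change of 0.63 (SE 0.075, limma adjusted p = 2.5e-07). SMAD6, on chromosome 15 (66702236 to 66782849, plus strand), ran from 7.76 to 9.09 CPM with R1881 + DMSO (median 8.26) and was 8.66, 9.95, 8.23, 9.70 and 8.66 CPM with R1881 + enzalutamide. These groups overlapped, with 2 of 5 libraries with the inhibitor above the highest without it. The log2 fold change of SMAD6 was 0.12 (95% interval -0.01 to 0.24, limma adjusted p = 0.10), with library totals of 1000000 it was 0.20 (limma adjusted p = 0.0062), and in the edgeR quasi-likelihood test on the recovered reads 0.17 (adjusted p = 0.026).

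**Figure D3:**
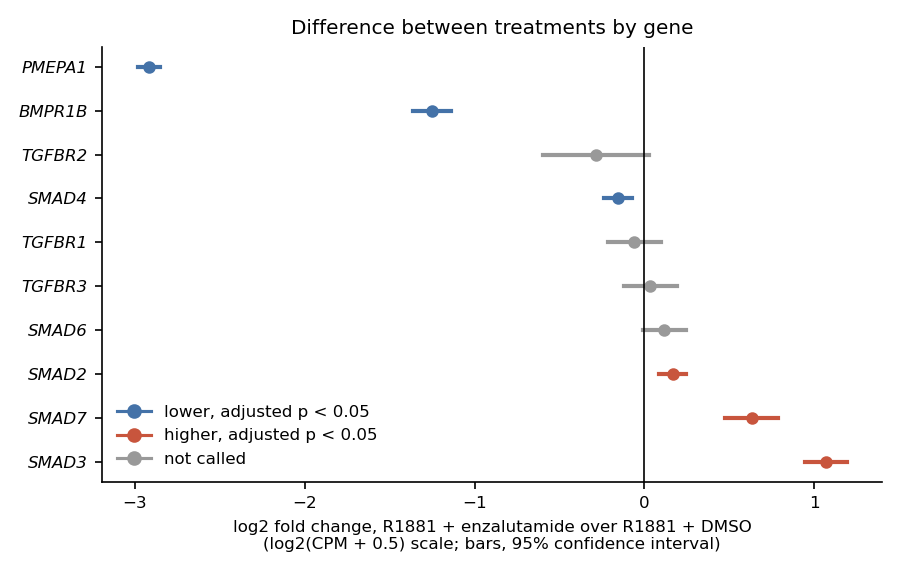
Log2 fold change of R1881 + enzalutamide over R1881 + DMSO (horizontal axis, log2(CPM + 0.5) scale, bars for the 95% confidence interval) of the 10 genes (vertical axis), in blue where lower, red where higher and grey where not called. PMEPA1 stands alone near -2.92, and the intervals of SMAD6, TGFBR1, TGFBR2 and TGFBR3 include 0.

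Differences between genes of the same library cancel the scaling of that library except for the pseudocount of 0.5 CPM, which weighs most on genes with few reads such as TGFBR2. SMAD3 minus SMAD2, on the log2(CPM + 0.5) scale, went from -3.11 ± 0.096 (n = 10) to -2.21 ± 0.059 (n = 5), a rise of 0.90 (exact permutation test over 3003 regroupings, two-sided, p = 0.00033, the smallest it can give, 0.00044 after adjustment over 4 pairs). SMAD3 therefore rose relative to its close relative within libraries, in 5 of 5 libraries with the inhibitor above the highest of the others. SMAD7 minus SMAD6 rose from 0.51 ± 0.129 to 1.02 ± 0.126, by 0.52, and BMPR1B minus BMPR1A rose from 0.79 ± 0.071 to 1.09 ± 0.097, by 0.30, both with the same exact p and adjusted p as SMAD3 minus SMAD2 and without overlap. BMPR1B and BMPR1A both fell (log2 fold changes -1.25 and -1.55), so their difference rose because BMPR1A fell more. TGFBR1 minus TGFBR2 changed by 0.23 (exact permutation p = 0.25, adjusted p = 0.25), with overlap between the groups, and by 0.46 with a pseudocount of 0.1 (exact permutation adjusted p = 0.14).

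**Figure D4:**
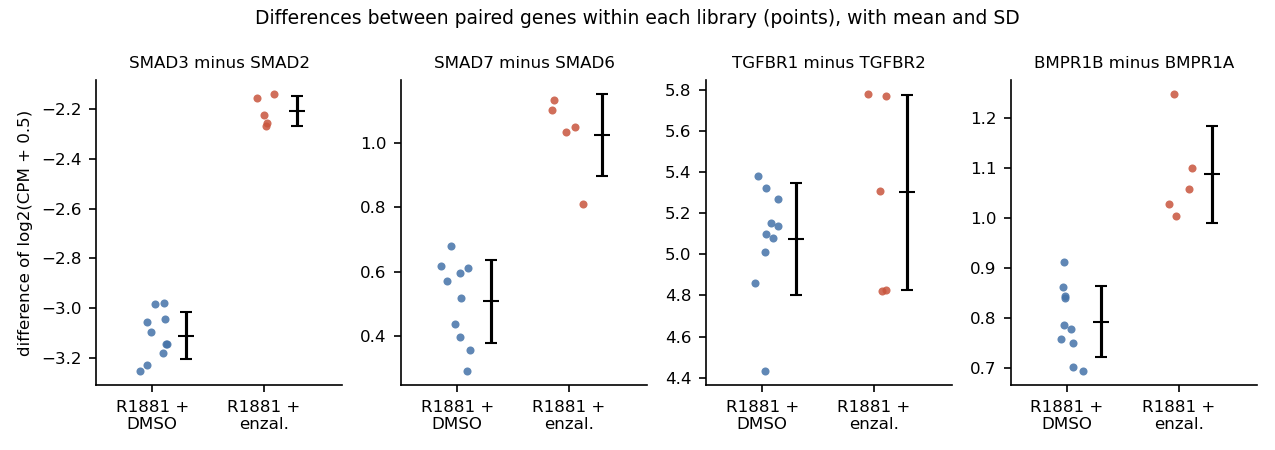
Difference in log2(CPM + 0.5) between 4 pairs of genes in each library (vertical axis, its own range in each panel, not starting at 0) with R1881 + DMSO (blue, n = 10) and R1881 + enzalutamide (red, n = 5), with mean and SD in black. The groups are apart for SMAD3 minus SMAD2, SMAD7 minus SMAD6 and BMPR1B minus BMPR1A, and they overlap for TGFBR1 minus TGFBR2.

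Around the 10 genes, 107 further genes of the pathway were listed by role, of which 71 had a row and were tested, and the other 36 were not analysed here. Of the 71, 26 were lower, 30 were higher and 15 did not pass the test, so 78.9% were called beside 62.5% of all genes tested. Their median log2 fold change was 0.07 beside -0.01. By role, the share called ran from 57.1% (other receptors) to 87.5% (BMP induced genes). The counts by role below stand beside 32.7% lower and 29.8% higher among all genes tested, and no role was tested as a set. Among 4 ligands, 2 rose and 1 fell. INHBB, a subunit of activin B, went from 1.599 ± 0.374 to 4.36 ± 0.395 CPM (log2 fold change 1.23), and GDF15, a distant and stress-related member of the family, from 14.0 ± 3.43 to 26.1 ± 3.85 CPM (0.90). GDF11 fell from 72.8 ± 2.55 to 54.1 ± 1.93 CPM (-0.43). TGFB1, TGFB2 and TGFB3 are among the ligands not analysed here.

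Of 8 genes listed under latency and activation of TGF-beta, 3 fell and 3 rose. ITGAV, the alpha-v integrin that binds latent TGF-beta, fell from 294 ± 16.8 to 119 ± 9.22 CPM (log2 fold change -1.30, limma adjusted p = 1.1e-15), and THBS1, thrombospondin 1, fell from 72.3 ± 7.36 to 29.8 ± 1.85 CPM (-1.26). LTBP1 and LTBP2, of the family named latent TGF-beta binding proteins, rose, from 1.76 ± 0.423 to 3.79 ± 0.583 CPM (0.94) and from 2.32 ± 0.485 to 4.29 ± 0.605 CPM (0.77). The named genes are the highest and lowest called of the list, and LTBP4 (-0.05, limma adjusted p = 0.80) and the integrin chain ITGB8 (0.03, limma adjusted p = 0.90) did not pass the test. Of 5 antagonists, 3 rose and 1 fell. BAMBI, a receptor-like protein without a kinase, rose from 19.9 ± 2.59 to 36.2 ± 1.498 CPM (0.86), and FSTL3, which binds activin, from 9.16 ± 1.34 to 12.6 ± 1.12 CPM (0.45). NBL1, a BMP antagonist of the DAN family, fell from 2.54 ± 0.552 to 0.416 ± 0.118 CPM (-1.72).

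Of 7 other receptors of the family, 2 fell, 2 rose and 3 did not pass the test. BMPR1A, the relative of BMPR1B, fell from 98.6 ± 10.7 to 33.3 ± 2.79 CPM (log2 fold change -1.55, limma adjusted p = 4.6e-14), and the type II receptor BMPR2 fell from 372 ± 21.5 to 276 ± 16.5 CPM (-0.43). The activin receptors ACVR2B and ACVR1B rose by smaller amounts, with log2 fold changes of 0.27 and 0.13. ACVR1, ACVR2A and AMHR2 did not pass the test, with log2 fold changes of 0.07, -0.14 and 0.26. Of the 3 SMADs of the BMP branch, SMAD1 rose from 14.2 ± 1.28 to 26.4 ± 1.71 CPM (0.88), SMAD9 rose from 43.3 ± 4.04 to 49.7 ± 3.20 CPM (0.20), and SMAD5 did not pass the test (0.07, limma adjusted p = 0.23).

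Of 18 ubiquitin ligases, deubiquitinases and receptor adaptors, 10 fell and 5 rose, so 83.3% were called beside 62.5% of all genes tested. NEDD4L, a NEDD4-family ligase, fell from 463 ± 11.6 to 276 ± 8.99 CPM (log2 fold change -0.75, limma adjusted p = 2.1e-15), and UCHL5, a deubiquitinase, from 47.9 ± 4.44 to 31.0 ± 2.66 CPM (-0.62). WWP2, another NEDD4-family ligase, rose from 55.7 ± 4.45 to 87.6 ± 5.07 CPM (0.65), and the deubiquitinase USP11 rose from 53.8 ± 3.48 to 68.2 ± 4.79 CPM (0.34). Of 7 nuclear cofactors of SMADs, 4 rose and 2 fell. The corepressors TGIF2 and TGIF1 rose with log2 fold changes of 0.57 and 0.25, while the corepressor SKI (-0.22) and the coactivator EP300 (-0.10) fell. The coactivator CREBBP (0.17, limma adjusted p = 8.1e-05) and the corepressor SKIL (0.21) also rose, so neither kind of cofactor moved in 1 direction. The EP300 value was -0.01 with library totals of 1000000 (limma adjusted p = 0.85).

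Genes known to be induced by TGF-beta in other cells moved both ways, with 4 of 11 lower and 5 higher. SNAI2, a transcription factor of mesenchymal transition, fell from 16.3 ± 1.04 to 0.354 ± 0.0733 CPM (log2 fold change -4.30, limma adjusted p = 1.4e-21), and BHLHE40, a transcriptional repressor, from 12.6 ± 0.730 to 6.48 ± 0.524 CPM (-0.91). The matrix genes FN1, fibronectin, and COL1A1, a collagen I chain, rose from 534 ± 32.1 to 904 ± 65.2 CPM (0.76) and from 6.03 ± 1.28 to 9.96 ± 1.80 CPM (0.69). The summed fibroblast markers, of which COL1A1 is 1, moved the same way, with COL3A1 going from 1.84 ± 0.480 to 11.96 ± 0.979 CPM and LUM from 0.213 ± 0.0761 to 1.53 ± 0.124 CPM, and their part in the result was not tested. Of 8 genes known to be induced by BMP, 4 rose and 3 fell. ID3, an inhibitor of bHLH factors, rose from 24.2 ± 5.05 to 48.5 ± 9.62 CPM (0.99) and the homeobox gene MSX2 from 4.12 ± 0.403 to 7.96 ± 0.363 CPM (0.88), while HEY1 fell from 4.52 ± 0.459 to 1.94 ± 0.332 CPM (-1.05) and MSX1 from 4.96 ± 0.520 to 4.08 ± 0.479 CPM (-0.25).

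**Figure D5:**
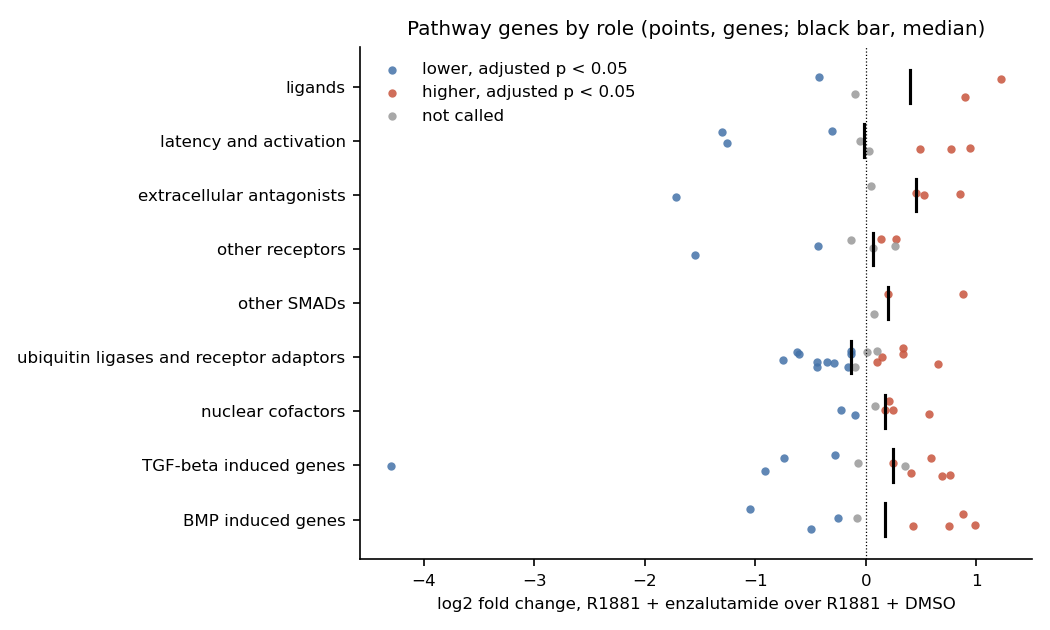
Log2 fold change of R1881 + enzalutamide over R1881 + DMSO (horizontal axis) of 71 pathway genes by role (vertical axis), each point a gene in blue where lower, red where higher and grey where not called, with the median of each role as a black bar. Every role except the other SMADs holds genes called in both directions, and the point at the far left is SNAI2.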

How the data were processed

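The deposited values are a normalized signal per gene and library, called CPM in the methods, which the authors made with STAR on GRCh38 and featureCounts. For the versions of both tools, annotation, strand setting, gene filter and scaling, nothing is given in the sources used here. The methods text gives the replicate numbers of the 2 treatments the other way round from the labels, which were followed. All values (100%) were whole multiples of 1 read, within 0.01 reads. Libraries of a treatment differed by more than sampling noise (lowest ratio of chi-square to degrees of freedom 1.63, over 45 and 10 pairs).

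Differences were tested with limma 3.58.1 in R 4.3.3 (eBayes with trend on log2(CPM + 0.5), for the 17046 genes averaging 0.5 CPM or more, Benjamini-Hochberg adjustment, threshold 0.05), and the script was tested on simulated data. The design had assumed plain CPM. Fold changes on this scale understate changes of low genes. Alternatives covered the pseudocount, filter, scaling, edgeR 4.0.16, DESeq2 1.42.0, a replicate block, both R1881 + DMSO series and each library left out. The members and lists were chosen with earlier results of these data known. Named were the members, 3 treatment checks, of each list the 2 highest and 2 lowest called genes averaging 1 CPM or more, the 5 genes nearest to PMEPA1 and the paired genes, beside cell type markers, while NKILA, MTCO2P2, SMAD5, LTBP4, ITGB8, ACVR1, ACVR2A, AMHR2, CREBBP and SKIL were named after their values were seen. Positions are from GENCODE v44.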

Additional observations from a re-analysis of the deposited data

How the results depend on the processing

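The calls for PMEPA1, BMPR1B, SMAD2, SMAD3 and SMAD7 were kept under every alternative run, with PMEPA1 between -2.94 and -2.82 on the log2 scale. Reversed signs were found for TGFBR1 (0.0338 with library totals of 1000000, 0.0101 against the R1881 + DMSO libraries 71 to 75, and between -0.0963 and 0.0081 with each library left out, the last without enzalutamide replicate 2) and for TGFBR3 (-0.0906 against the libraries 51 to 55), neither of which was called; the cause was not tested. On the recovered reads edgeR called 10744 genes and DESeq2 10552. The replicate numbers of the labels do not pair the libraries (correlations of deviations between same-numbered libraries of -0.068 to 0.074, with 0 of 5 closest to their own number). With the replicate block, on 5 pairs, 10043 genes were called, and the within-library differences of SMAD3 minus SMAD2, SMAD7 minus SMAD6 and BMPR1B minus BMPR1A were 0.96, 0.48 and 0.27 with an exact adjusted p of 0.083 each, where 5 pairs cannot go below an unadjusted p of 0.0625. The number of members called lower ranged from 2 to 4 and higher from 3 to 4 over the alternatives, and in the pathway lists from 19 to 28 and from 23 to 37. SMAD4, EP300, ACVR1B, MSX1, SMAD9 and TGIF1 lost their call under at least 1 alternative. Depth limits the values of TGFBR2, which rests on at most 21 reads per library.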
